A study of Mus musculus with 6 samples.

Results

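The GATA transcription factor genes of the mouse, Gata1 to Gata6, were followed in salivary gland primordia of wild-type embryos at embryonic day 13.5 exposed to BMP-2, a signal of the bone morphogenetic protein family, at 0 or 300 ng/ml. The members were taken by symbol from the table of counts per gene, where each of the 6 has 1 row among 58116, and 3 of them, Gata2, Gata3 and Gata6, had enough reads to enter the test with 17006 genes. Both groups consisted of wild-type tissue and differed, as far as the labels say, only in the dose of BMP-2, with 3 poly(A) RNA libraries at each dose. The length of treatment and the number of embryos behind a library are not given in the labels. The group of 1 BMP-2 library rests only on the first letter of its name, and this library is called the unnumbered BMP-2 library.

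GATA factors bind the DNA word GATA and its neighbours through a pair of zinc fingers, of which the carboxy-terminal one makes the main contact with DNA and the other binds further bases and partner proteins of the FOG family. The mammalian family falls into a group known from blood (Gata1, Gata2 and Gata3) and a group known from heart and endoderm (Gata4, Gata5 and Gata6). Gata1 drives red cell and megakaryocyte formation. Gata2 keeps blood progenitors and mast cells and also acts in endothelium and in ectoderm that does not form the nervous system. Gata3 acts in T cells, sympathetic neurons, the mammary gland, the skin and the hair follicle. Transcription of Gata2 and Gata3 in early surface ectoderm is a classic response to BMP in frog and fish embryos, which is the reason for following the family in BMP-2-treated glands.

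Gata2 and Gata3 were the members that rose, so the DNA around their transcription starts is shown here. Windows from the RefSeq promoter table of build GRCm38.p6 were taken for 4 of the 6 members (Gata1, Gata2, Gata3 and Gata5). They cover 250 bases before and 50 bases after each start. This count does not show that the promoter table lacks windows for the other members. Gata2 has a pair of windows, and their starts lie 4773 bases apart. Capitals mark the palindrome GGCGCC, a GC-rich word of the kind found in BMP response elements such as that of Id1, and the GATA words AGATAA or AGATAG and also TGATAA or TGATAG, all searched on both strands.
Gata2, upstream start, chr6:88193641-88193940, plus strand: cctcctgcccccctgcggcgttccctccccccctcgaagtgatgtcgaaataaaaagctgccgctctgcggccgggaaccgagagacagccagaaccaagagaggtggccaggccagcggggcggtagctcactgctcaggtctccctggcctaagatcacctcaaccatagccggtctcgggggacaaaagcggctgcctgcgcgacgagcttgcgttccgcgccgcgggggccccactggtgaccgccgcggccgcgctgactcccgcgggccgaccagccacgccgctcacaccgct
Gata2, downstream start, chr6:88198414-88198713, plus strand: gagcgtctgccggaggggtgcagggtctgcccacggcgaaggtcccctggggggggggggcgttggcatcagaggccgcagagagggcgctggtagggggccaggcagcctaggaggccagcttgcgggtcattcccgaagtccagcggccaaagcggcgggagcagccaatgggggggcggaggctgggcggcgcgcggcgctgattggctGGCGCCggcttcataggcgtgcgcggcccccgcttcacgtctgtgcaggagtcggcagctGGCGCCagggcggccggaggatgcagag
Gata3, chr2:9878551-9878850, minus strand: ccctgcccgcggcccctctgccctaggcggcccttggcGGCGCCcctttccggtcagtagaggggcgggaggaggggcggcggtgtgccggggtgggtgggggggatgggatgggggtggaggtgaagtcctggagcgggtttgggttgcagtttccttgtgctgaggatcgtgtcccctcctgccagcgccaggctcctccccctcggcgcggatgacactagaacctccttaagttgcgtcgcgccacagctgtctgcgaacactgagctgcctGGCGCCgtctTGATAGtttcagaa

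The downstream Gata2 window holds GGCGCC at 2 places, 38 bases before and 22 bases after the start. The Gata3 window also holds it at 2 places, 212 bases before and 26 bases after the start, and has 1 GATA word 36 bases after it. Neither word is in the upstream Gata2 window. GGCGCC is found in 11.9% and a GATA word in 29.8% of all 32841 windows of the set. The 3 windows shown are rich in G and C, at 69.3, 73.7 and 67.3% against a median of 52.7%, and a word made only of G and C is met more easily in such DNA. These matches describe the sequence and were not tested for binding.

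Total counts ran from 19724383 to 26269855 in the control and from 23331703 to 32473558 in the BMP-2 libraries, and a count of 3 corresponds to between 0.0933 and 0.150 CPM (counts scaled to a common library size with the TMM factor). The labelled tissue had its epithelial markers: all 12 general epithelial genes were tested and summed to 3494 to 4764 CPM, without a called gene. The 11 end bud and proacinar genes, which mark the secretory buds of the gland, summed to 3514 to 5659 CPM in the controls and 2036 to 2320 CPM with BMP-2, so the groups did not overlap. Their median log2 change was -0.35 and 0 of 11 were positive. EdgeR and limma-voom called 0 and DESeq2 2, and edgeR gave 7 lower and 0 higher at an unadjusted p below 0.05. Over all 17006 tested genes edgeR gave 621 lower and 1100 higher at that p. DESeq2 called 672 of 17001 genes and limma-voom 78 of 17006. These counts over all genes stand beside every list below. The part of this shift in the Gata2 and Gata3 results was not tested. Skeletal muscle transcripts differed strongly between libraries, as described beside the members below. The labels do not say if each library is a litter or culture of its own, so the p-values reflect only how far these libraries spread, and part of that spread may be technical. In whole glands, more cells of a type and more RNA per cell cannot be told apart.

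BMP-2-treated glands had more Gata2 and Gata3 RNA than controls, and Gata6 did not pass the test. Of the 3 tested members 2 were called higher and 0 lower, where 0.911% of all tested genes were called in either direction, 0.811% of them higher (155 and 138 of 17006; edgeR, quasi-likelihood fit, adjusted p below 0.05 by the Benjamini-Hochberg method). Of all tested genes 15.5% had groups that did not overlap.

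Gata2, on chromosome 6 from 88170873 to 88184014 (GRCm39, plus strand), had 18, 19 and 29 reads in control replicates 1, 2 and 3. With BMP-2 it had 211 reads in replicate 1, 106 in replicate 2 and 120 in the unnumbered library. Scaled to library size these are 0.896, 0.951 and 1.08 CPM in the controls and 6.56, 4.36 and 5.09 CPM with BMP-2. The controls lay close together, every treated library lay above all of them, and BMP-2 replicate 1 was the highest. The mean was 0.977 ± 0.0970 CPM without and 5.34 ± 1.12 CPM with the ligand (SD, n = 3 each). Gata2 rose by 2.44 on the log2 scale (SE 0.277, adjusted p = 0.0125, edgeR), or 5.43-fold with a 95% interval from 3.50 to 8.43. By p-value Gata2 ranked 22 among the tested genes.

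Gata3, on chromosome 2 from 9861889 to 9894845 (GRCm39, minus strand), had 69, 50 and 67 reads in the controls and 276, 231 and 223 with BMP-2. These are 3.43, 2.50 and 2.51 CPM in the controls, and 8.58, 9.50 and 9.46 CPM in BMP-2 replicate 1, BMP-2 replicate 2 and the unnumbered library. The groups did not overlap, and BMP-2 replicate 1, the library with most Gata2, had the least Gata3 of the treated libraries. The means were 2.81 ± 0.537 and 9.18 ± 0.519 CPM (SD, n = 3 each). Gata3 rose by 1.71 on the log2 scale (SE 0.215, adjusted p = 0.0158, edgeR), or 3.26-fold with a 95% interval from 2.32 to 4.59.

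Gata6, a member known from heart, lung and gut endoderm, lies on chromosome 18 from 11052064 to 11085635 (GRCm39, plus strand). It was the most read member in the controls, at 8.11, 8.11 and 9.57 CPM. With BMP-2 it was at 9.98 and 8.55 CPM in replicates 1 and 2 and at 11.1 CPM in the unnumbered library. The groups overlapped. The log2 change was 0.20 (SE 0.177, adjusted p = 0.877, edgeR), a fold of 1.15 with a 95% interval from 0.868 to 1.52, which lies below the intervals of Gata2 and Gata3.

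The other members were near the limit of detection and did not enter the test. Gata1, on the X chromosome, had 1 read in the controls together, in replicate 3, and 4, 0 and 3 reads with BMP-2. The ratio of the group sums was 5.84 with a 95% counting interval from 0.751 to 263, so no difference was detectable at this depth. Gata4, a cardiac and endodermal factor gene on chromosome 14, had 1, 1 and 6 reads in the controls and 2 in each BMP-2 library, a ratio of 0.626 (interval from 0.179 to 2.06). Gata5, its relative on chromosome 2, had 0 reads in each control and 1, 9 and 2 reads with BMP-2. The 95% counting interval of its ratio starts at 2.32. Set against 3 counts over the control group, the treated sum of 12 is 3.34-fold higher. However, 9 of the 12 reads came from BMP-2 replicate 2, and the other 2 libraries held no more than 3 reads. In a fit of all rows with at least 1 count Gata5 was not called (adjusted p = 0.294, edgeR). Intervals of this kind cover counting error only, and the ratio to 3 counts leaves out counting error of the treated reads.

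**Figure D1:**
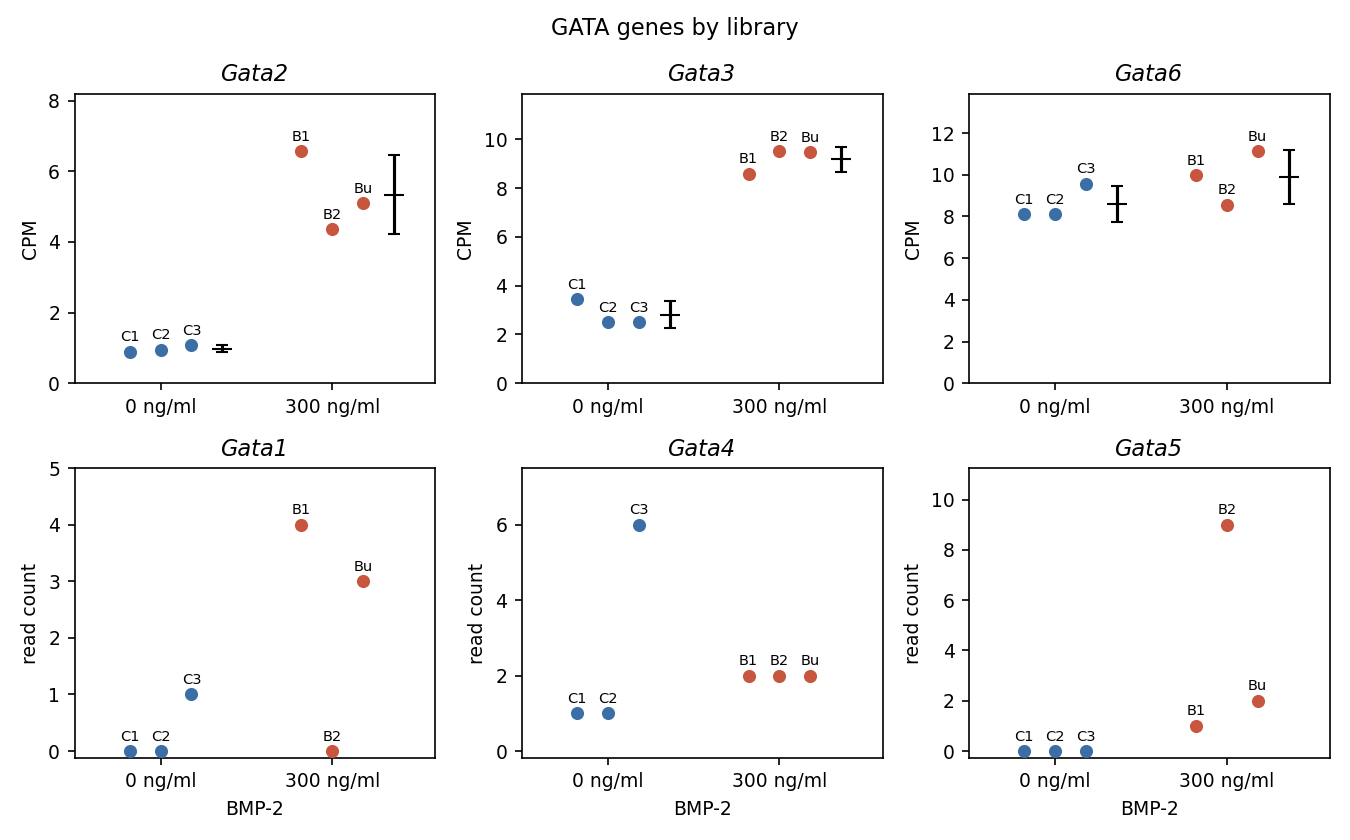
Level of the 6 GATA genes in each library at 0 (blue) and 300 ng/ml (red) BMP-2, in CPM for the 3 tested members (black bars, mean ± SD, n = 3) and as read counts for the 3 members with few reads. C1 to C3 are the controls, B1, B2 and Bu the BMP-2 libraries (u, unnumbered). Treated libraries lie at 4.36 to 6.56 CPM for Gata2 and 8.55 to 11.1 CPM for Gata6.

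To compare members with each other, levels were divided by the gene length in the deposited table (CPM per kilobase). In the controls the order was Gata6 at 1.28 ± 0.125, Gata3 at 0.666 ± 0.127, Gata2 at 0.179 ± 0.0178 and Gata4 at 0.0277 ± 0.0258 CPM per kilobase (SD, n = 3), with Gata1 and Gata5 at or close to 0. The levels of Gata6, Gata3 and Gata2 stood further apart than their spread, and Gata4 could not be told from the last pair at these counts. With BMP-2 the order was Gata3 at 2.17 ± 0.123, Gata6 at 1.47 ± 0.191 and Gata2 at 0.978 ± 0.205 CPM per kilobase, with the other 3 members at 0.0494 or less. Gata3 was above Gata6 in all 3 treated libraries and below it in all 3 controls. The lowest treated value of Gata6 and the highest of Gata2 nearly met, although within each treated library Gata2 was below Gata6.

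The family as a whole summed to 2.16 ± 0.155 CPM per kilobase in the controls and 4.72 ± 0.243 in the treated glands (SD, n = 3). The exact permutation p, two-sided, was 0.1, which is the smallest that 3 against 3 libraries allow. Within that sum Gata6 made up 54.9, 60.7 and 62.2% in the controls and 30.9, 28.5 and 33.5% with BMP-2. The share of Gata2 was 7.48 to 8.78% in the controls and 17.9 to 25.1% in the treated libraries. Gata3 went from 25.9 to 37.0% without to 42.4 to 50.5% with BMP-2. None of these 3 shares overlapped between the groups, and each has an exact p of 0.1. A share sets members against each other: the level of Gata6 itself was 8.60 ± 0.844 CPM in the controls and 9.88 ± 1.28 CPM in the treated glands.

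**Figure D2:**
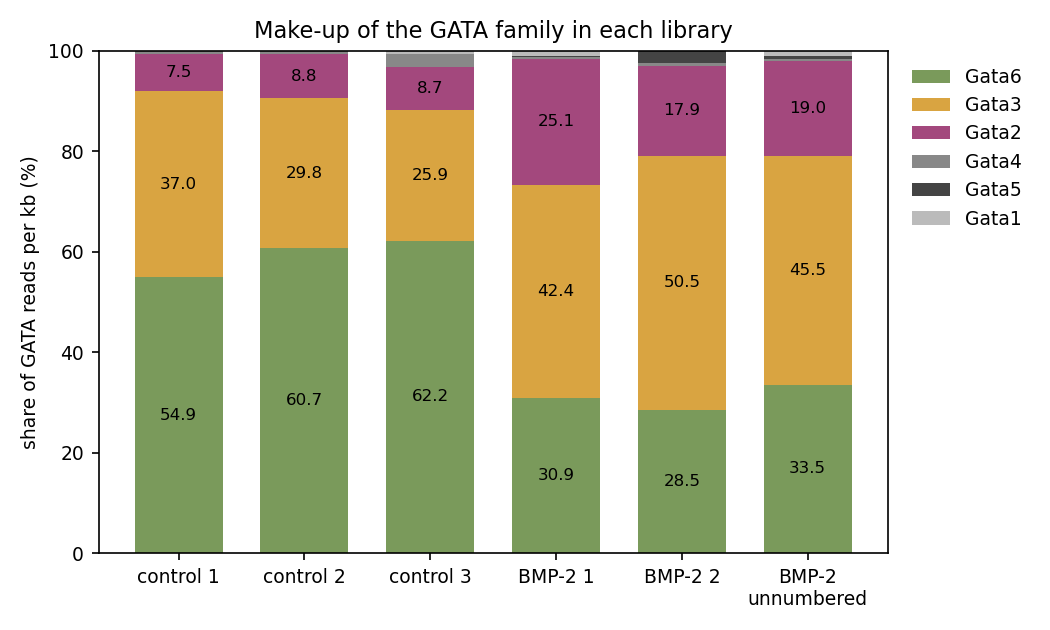
Share of each GATA gene in the summed GATA reads per kilobase, in percent, for the 6 libraries, with shares above 5% printed. Gata6 takes 54.9% or more in the 3 controls and 33.5% or less in the 3 BMP-2 libraries.

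Ratios between members within a library do not depend on the scaling between libraries. On the log2 scale the ratio of Gata2 to Gata3 reads was -1.94, -1.40 and -1.21 in the controls and -0.39, -1.12 and -0.89 in BMP-2 replicate 1, BMP-2 replicate 2 and the unnumbered library. The mean ratio was 0.71 higher with BMP-2, but BMP-2 replicate 2 lay only just above control replicate 3. Gata3 over Gata6 was higher by 1.52 and Gata2 over Gata6 by 2.24, the latter from a tight control range of -3.18 to -3.09 to a treated range of -1.13 to -0.61. For these 3 pairs, the last 2 of which were compared after their levels were seen, the groups did not overlap and the exact two-sided permutation p was 0.1 each, the smallest possible, and 0.1 when adjusted over the pairs. With 3 against 3 libraries this test cannot reach 0.05, so it does not decide whether Gata2 rose by more than Gata3.

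Several transcripts overlap or adjoin the members. 4930412O13Rik lies within the Gata3 span on the other strand and had 0 reads in each control and 9, 8 and 1 reads in BMP-2 replicate 1, BMP-2 replicate 2 and the unnumbered library. Against 3 counts over the control group this is 5.01-fold higher, without allowance for counting error of the treated reads. The other overlapping rows, Gm13256 and 9230102O04Rik, had 1 and 0 reads in the controls and 3 and 1 with BMP-2. Gm38708 lies on the other strand 3210 bases from Gata2 and had 0 reads in the controls and 6, 2 and 0 with BMP-2. Against the same 3 counts this is 2.23-fold higher, again without that allowance. Gata5os, antisense to Gata5, had 3 reads, all in BMP-2 replicate 2, the library with 9 of the Gata5 reads. Gata6os, which overlaps the start of Gata6, had 5, 5 and 20 reads in the controls and 23, 21 and 15 with BMP-2, and was not called (log2 change 0.78, SE 0.513, adjusted p = 0.774, edgeR). The libraries were made with a directional kit, but the sources used here do not give the strand setting of the counting, and without it reads of a gene and its antisense partner cannot be told apart. These partners had few reads beside the 730 reads of Gata3 and 791 of Gata6 in the treated libraries.

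The size of the Gata2 and Gata3 changes hardly moved when a library was left out, from 2.26 to 2.57 for Gata2 and from 1.63 to 1.87 for Gata3 on the log2 scale, but the calls were less firm. Without control replicate 1 Gata2 was not called (adjusted p = 0.0669) and Gata3 was (0.0460). Without control replicate 2 neither was called (0.0583 and 0.0800), nor without the unnumbered BMP-2 library (0.0551 and 0.0815). Leaving out control replicate 3, BMP-2 replicate 1 or BMP-2 replicate 2 kept both calls (all edgeR). DESeq2 called both (adjusted p = 7.68e-10 for Gata2 and 5.42e-10 for Gata3), as did limma-voom (0.0373 and 0.0304).

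**Figure D3:**
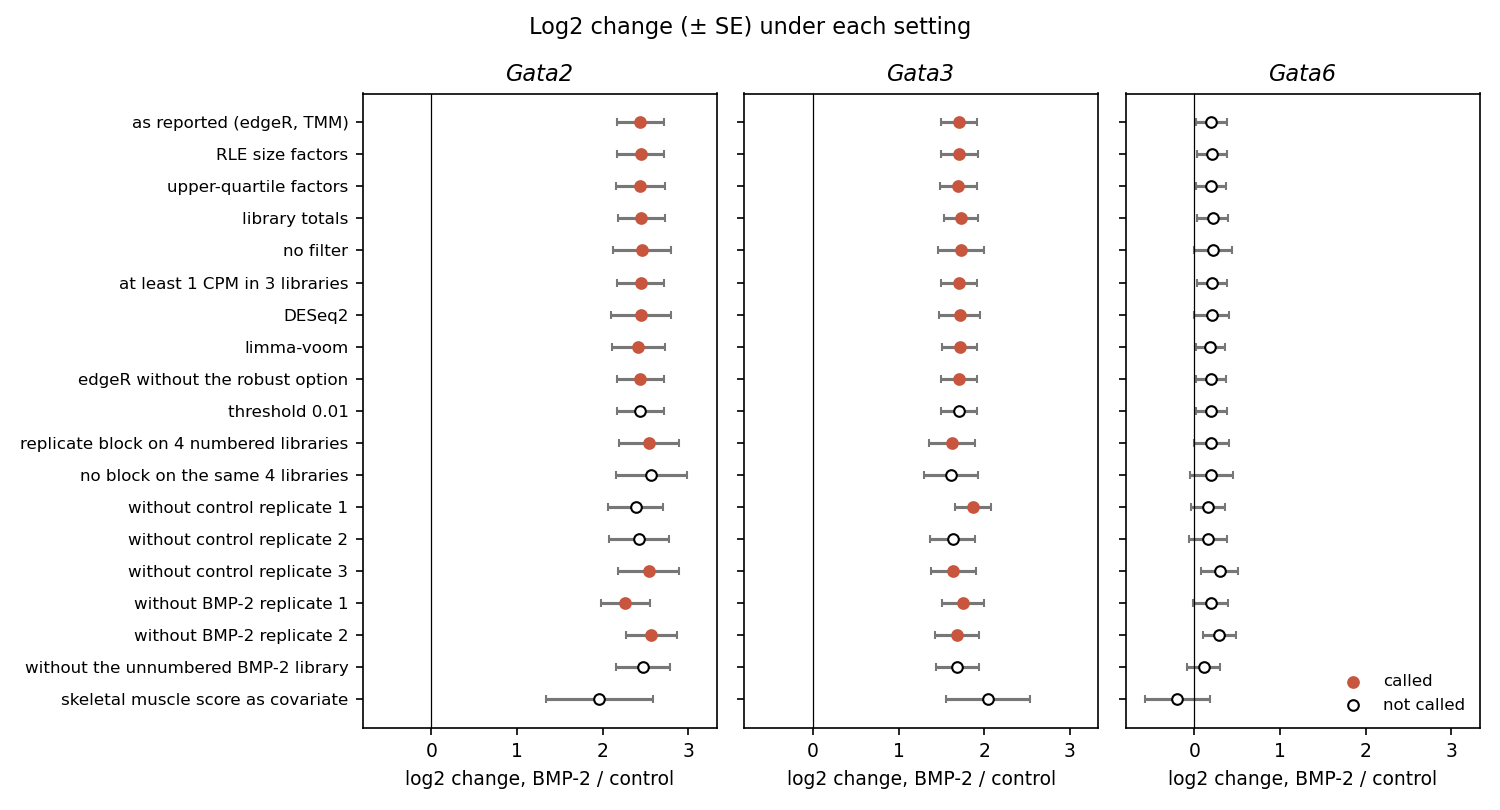
Log2 change (BMP-2 over control, ± SE) of Gata2, Gata3 and Gata6 under each setting, with filled red points where the gene was called and open points where it was not. The Gata2 points span 1.96 to 2.57 and the Gata3 points 1.61 to 2.05, all above 0, while Gata6 spans -0.20 to 0.30.

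Partners and relatives of the GATA factors were looked at as lists. Of 17 tested cofactors and DNA-bound partners edgeR called 0, with a median log2 change of 0.03 beside -0.01 over all tested genes. At an unadjusted p below 0.05 edgeR found 2 higher and 0 lower, beside 1100 and 621 of all 17006 tested genes. DESeq2 called 1 and limma-voom 0, beside 672 and 78 over all genes. The most abundant were Lmo4, a LIM-domain adaptor (311 ± 55.1 CPM in controls and 279.8 ± 23.2 CPM in treated glands, SD, n = 3), and Tcf4, an E protein (means of 204 and 199.6 CPM). Zfpm2, which encodes the FOG cofactor of Gata4, was at 0.757 ± 0.311 and 1.31 ± 0.209 CPM, Lmo2, the adaptor of the blood GATA complex, at 4.30 ± 0.731 and 4.56 ± 1.42 CPM, and Fli1, an ETS factor gene of blood and vessels, at 1.93 ± 0.573 and 5.20 ± 1.05 CPM (adjusted p = 0.080, edgeR). These 3 were chosen after their values were seen. Of 8 tested genes for other proteins with a GATA-type finger, which include the chromatin proteins Gatad2a and Rere, edgeR, DESeq2 and limma-voom called 0, and 0 had an unadjusted p below 0.05 in edgeR. Their log2 changes lay between -0.17 and 0.28.

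Genes that GATA factors are reported to regulate in other tissues were tested as a list of 12 with enough reads out of 20. EdgeR called 0 and limma-voom 0, DESeq2 called 1, and edgeR found 1 higher and 0 lower at an unadjusted p below 0.05. Over all 17006 tested genes, 1100 were higher and 621 lower at that p. The median was 0.10. Sema3c, a guidance signal gene, was at 64.6 ± 14.9 CPM without and 114 ± 16.6 with BMP-2 (log2 change 0.82, adjusted p = 0.0948), and Kit, a receptor gene, at 137 ± 7.88 and 126 ± 17.3 CPM (log2 change -0.12, adjusted p = 0.896; SD, n = 3 each, edgeR).

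Among transcription factor genes that act with Gata2 and Gata3 in BMP-exposed ectoderm, 4 of 12 tested rose and 0 fell, with a median log2 change of 0.59. The called ones were homeobox genes, Dlx5 (3.26), Dlx2 (2.77), Msx2 (6.08) and Dlx3 (4.55), with adjusted p from 0.0138 to 0.0253. DESeq2 called 7 and limma-voom 0. The AP-2 genes Tfap2a and Tfap2c, which are expressed with Gata2 and Gata3 in that ectoderm, were at 61.0 ± 3.15 and 61.1 ± 4.65 CPM and at 34.9 ± 0.679 and 35.7 ± 4.40 CPM. They were not called (adjusted p = 0.999 and 0.985, edgeR) and were chosen after their values were seen. Of 5 tested cardiac and endoderm factor genes, the setting in which Gata4, Gata5 and Gata6 are best known, 1 rose and 0 fell. This was Tbx20, a T-box gene of the heart, from 0, 0.300 and 0.262 CPM in the controls to 7.40, 5.31 and 7.72 CPM with BMP-2 (log2 change 5.11, SE 0.597, adjusted p = 0.0138, edgeR). Limma-voom called 1 of the 5 and DESeq2 2.

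**Figure D4:**
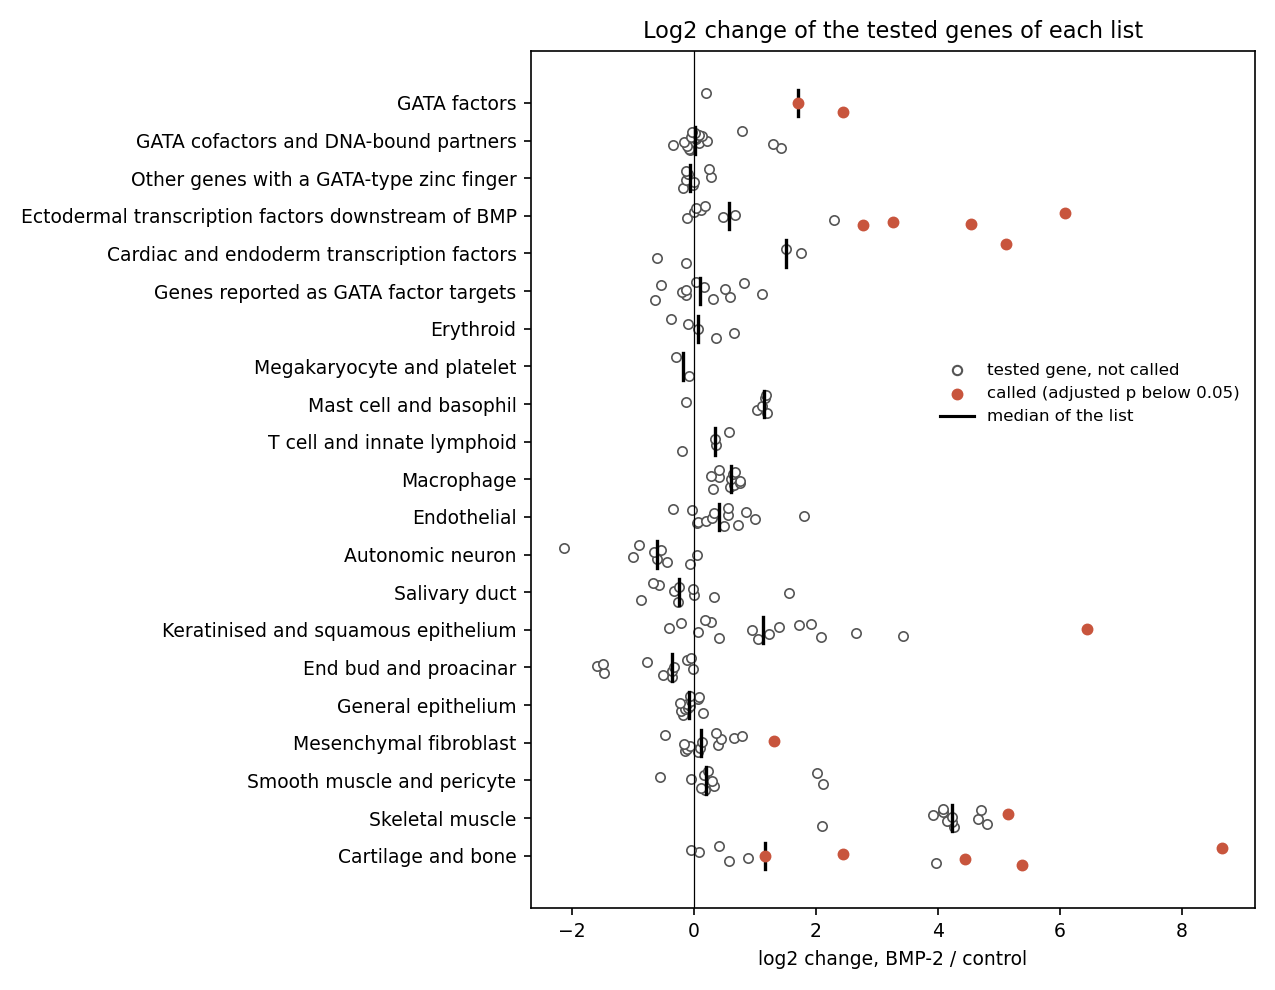
Log2 change (BMP-2 over control) of every tested gene of each list, one row per list, with called genes in red, other tested genes as open circles and the list median as a black bar. Gata2 and Gata3 lie at 2.44 and 1.71. The cofactors have a median of 0.03 and run from -0.35 to 1.43, and the other genes with a GATA-type finger run from -0.17 to 0.28.

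The cell types in which GATA genes are best known were looked for by their markers. Red cell and megakaryocyte RNA was scarce, with at most 5.63 CPM summed over 14 red cell genes and 6.71 CPM over 9 megakaryocyte genes in any library. The most abundant were Alas2, the heme synthesis enzyme gene of red cells, and the receptor gene Epor in the first list, at means of 1.11 and 0.810 CPM without and 1.42 and 1.27 CPM with BMP-2. In the second list they were the integrin gene Itga2b (4.42 and 4.19 CPM) and the platelet factor gene Pf4 (1.07 and 0.869 CPM). Slc4a1 and Hba-a2 of the first list, and Gp9, Gp1ba, Gp1bb and Gp6 of the second, had 0 reads in every library. The adult globin genes Hbb-bs and Hbb-bt had 0 reads in the controls and 10 and 11 with BMP-2, in all 3 treated libraries. Of the other globin genes, Hba-a1 had 29 reads in the controls and 35 with BMP-2, Hba-x 4 and 7, Hbb-y 14 and 11, and Hbb-bh1 2 and 1. Ppbp, a platelet chemokine gene, had 1 and 10 reads, and Tubb1 of the same list had 24 and 25. Of the T cell markers Cd3d and Cd3e had 0 reads in every library, and Cd4 had 21 reads in the controls and 89 with BMP-2, at 0.311, 0.864 and 2.46 CPM in the treated libraries. These markers with few reads were chosen after their values were seen. Their part in the Gata results was not tested. The most abundant genes of the T cell and innate lymphoid list, Bcl11b and Rora, were at 30.4 and 26.8 CPM and at 17.7 and 22.6 CPM. EdgeR, DESeq2 and limma-voom called 0 of 5 tested red cell, 0 of 2 megakaryocyte and 0 of 4 T cell and innate lymphoid genes. At an unadjusted p below 0.05 edgeR found 0, 0 and 2 of them higher.

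Mast cells use Gata2 and Gata1, and their markers stood out in 1 library. The 9 mast cell and basophil genes other than Kit, which gland epithelium also expresses, summed to 26.5, 22.4 and 17.1 CPM in the controls, 115 CPM in BMP-2 replicate 1, 14.8 CPM in BMP-2 replicate 2 and 15.8 CPM in the unnumbered library. Their protease genes moved together, with Cpa3 at 27.0 and Mcpt4 at 34.7 CPM in BMP-2 replicate 1 and at 3.45 to 6.62 and 3.95 to 7.37 CPM elsewhere. BMP-2 replicate 1 was also the library with most Gata2. Gata1 was at 0.124 CPM there (4 reads), at 0.127 CPM in the unnumbered library (3 reads) and at 0 in BMP-2 replicate 2. Fcer1a and Mcpt8 had 0 reads everywhere. Cpa3, Fcer1a and Mcpt8 were chosen after their values were seen. Without BMP-2 replicate 1 the log2 change of Gata2 was 2.26 (SE 0.286, adjusted p = 0.0248, edgeR). EdgeR, DESeq2 and limma-voom called 0 of the 6 tested genes of the list, with 0 at an unadjusted p below 0.05 in edgeR.

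Endothelium is another place of Gata2 expression. The 14 endothelial genes summed to 45.1, 41.5 and 58.2 CPM in the controls and 59.9, 66.8 and 68.1 CPM in BMP-2 replicate 1, BMP-2 replicate 2 and the unnumbered library. The groups did not overlap, though control replicate 3 came close to the treated libraries. The receptor gene Eng alone made up a large part of each sum. It was at 28.5, 21.8 and 23.7 CPM in the controls and 24.0, 32.5 and 29.0 CPM in the treated libraries in the same order. The sums therefore do not show a separation of the other endothelial genes. The median log2 change was 0.42, and 12 of 14 were positive. The largest was that of Flt1, at 1.73 ± 1.42 and 6.13 ± 2.75 CPM (log2 change 1.80, adjusted p = 0.566, edgeR), which was chosen after its values were seen. The most abundant were Eng, a receptor gene (24.7 and 28.5 CPM), and Erg, an ETS factor gene (2.92 and 5.89 CPM). EdgeR, DESeq2 and limma-voom called 0 of the 14, and 0 had an unadjusted p below 0.05 in edgeR. The part of endothelial RNA in the Gata2 result was not tested.

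For Gata3, the nearest tissues are duct and stratified epithelium and sympathetic neurons. Of 10 tested duct genes edgeR and limma-voom called 0 and DESeq2 2, and edgeR found 1 higher and 2 lower at an unadjusted p below 0.05. The edgeR fit with a replicate block on 4 libraries called 4. The median was -0.25 and 3 of 10 were positive. Over all libraries the most abundant were Krt14, a basal keratin gene, at 698 ± 177 and 881 ± 253 CPM and Krt17 at 237 ± 101 and 699 ± 451 CPM (SD, n = 3 each). The 2 lower genes were Tfcp2l1 (478 ± 52.0 and 303 ± 72.0 CPM) and Kcnn4 (117 ± 33.3 and 64.2 ± 5.72 CPM), chosen after their values were seen. Keratinised epithelium genes had a median log2 change of 1.14, and 14 of 16 were positive. EdgeR called 1, Krt24, with 2 reads in the controls and 237 with BMP-2, and found 7 higher and 0 lower at an unadjusted p below 0.05. DESeq2 called 3, limma-voom 1 and the edgeR fit with a replicate block on 4 libraries 5. The 16 genes summed to 1176, 689 and 2107 CPM in the controls and to 2329 to 3308 CPM with BMP-2, so the highest control was near the treated range. Their part in the Gata3 result was not tested.

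Autonomic neuron genes had mostly lower values with BMP-2, summing to 143 to 187 CPM in the controls and 63.8 to 143 CPM in the treated libraries. Of 9 tested, 1 had a positive log2 change and the median was -0.60. EdgeR called 0 and limma-voom 0, DESeq2 called 2, and edgeR found 0 higher and 4 lower at an unadjusted p below 0.05. The most abundant were the intermediate filament gene Prph (52.6 ± 4.24 and 33.8 ± 14.8 CPM) and Stmn2, a gene of growing axons (52.0 ± 11.4 and 28.1 ± 10.7 CPM). Dbh, which encodes the enzyme that makes noradrenaline and is a known Gata3-dependent gene of sympathetic neurons, had 0 reads in the controls and 26 with BMP-2, at 0.342, 0.247 and 0.382 CPM. Slc18a3, the acetylcholine transporter gene of the parasympathetic neurons that serve the gland, was at 3.14 ± 0.295 and 0.729 ± 0.373 CPM (log2 change -2.12, adjusted p = 0.0683, edgeR). Th had 1 read in the controls and 4 with BMP-2. Phox2a was lower with BMP-2, at means of 6.42 and 3.22 CPM (adjusted p = 0.247, edgeR). Hand2 was also lower, at means of 17.1 and 11.3 CPM (adjusted p = 0.346, edgeR). Dbh, Th, Hand2, Phox2a and Slc18a3 were chosen after their values were seen.

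Skeletal muscle RNA, which is no product of gland epithelium, had a higher summed level in the BMP-2 libraries. The 13 muscle genes summed to 2.14, 2.25 and 85.0 CPM in controls 1, 2 and 3, and to 764, 175 and 774 CPM in BMP-2 replicate 1, BMP-2 replicate 2 and the unnumbered library. All 12 tested genes were positive, with a median log2 change of 4.23. EdgeR called 1, the muscle progenitor gene Pax7, and found 10 higher and 0 lower at an unadjusted p below 0.05, while DESeq2 called 3, limma-voom 1 and the edgeR fit with a replicate block on 4 libraries 10. Control replicate 3 had far more muscle RNA than the other controls, with Gata2 at 1.08 CPM and Gata3 at 2.51 CPM. Among the treated libraries Gata2 was lowest in the one with least muscle RNA, and Gata3 was highest there. With the muscle score, the mean log2 CPM of the tested muscle genes centred on the controls, as a covariate, the log2 change was 1.96 (SE 0.625) for Gata2 and 2.05 (SE 0.492) for Gata3. The unadjusted p was 0.0136 and 0.00309 and the adjusted p 0.99988 for both, in a fit in which edgeR called 0 genes. The score was at most 2.67 in the controls and at least 3.91 with BMP-2. Muscle RNA and dose therefore cannot be told apart as sources of the Gata2 and Gata3 changes.

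**Figure D5:**
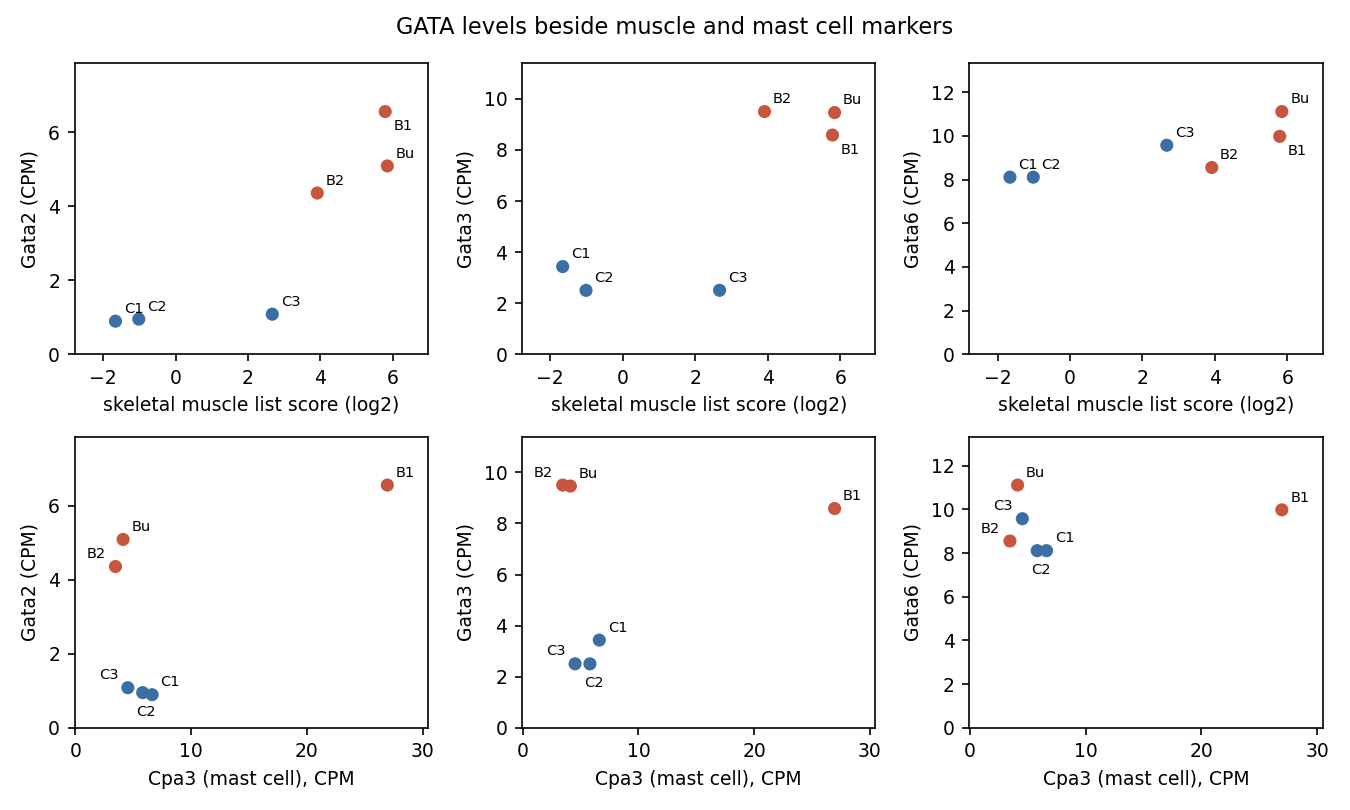
CPM of Gata2, Gata3 and Gata6 in each library against the skeletal muscle score (top, mean log2 CPM relative to the controls) and against Cpa3, a mast cell gene (bottom, CPM), with controls in blue and BMP-2 libraries in red, named C1 to C3, B1, B2 and Bu as above. Control replicate 3 has an intermediate muscle score of 2.67 with Gata2 at 1.08 CPM, and BMP-2 replicate 1 stands apart in Cpa3 at 27.0 CPM.

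The genes whose levels over the 6 libraries were most like those of each rising member were taken from 13640 candidates by the root-mean-square difference in log2 CPM after centring. For Gata2 these were Muc15, a membrane mucin gene, Edil3, a matrix protein gene, the ligand gene Bmp5, and the matrix proteoglycan genes Ogn and Aspn, with differences from 0.241 to 0.272. All 5 rose, by 2.21 to 2.43 on the log2 scale, which follows from choosing them by their likeness to Gata2 over these libraries. For Gata3 they were the potassium channel gene Kcnk3, Phyhip, Fbxo2, a ubiquitin ligase subunit gene, Fam20a, a secretory pathway pseudokinase gene, and the Wnt enhancer gene Rspo2, with differences from 0.165 to 0.206. Of these, Phyhip was not called (adjusted p = 0.0512, edgeR). The profiles of Gata2 and Gata3 differed from each other by 0.441, so that Gata3 ranked 21 for Gata2 and Gata2 ranked 93 for Gata3.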

How the data were processed

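Per the labels, poly(A) RNA from salivary gland primordia was sequenced with a directional kit. The authors deposited raw read counts per gene for 6 libraries, with gene lengths and GRCm39 coordinates. Cutadapt 2.9, HISAT2 2.2.0 and featureCounts were used, per the submitters' processing notes. Strand and multi-mapping settings are not given in the sources used here. Columns were matched to samples by description, except 1 known only as a BMP-2 library by its letter. Replicates of a group differed beyond counting noise (chi-square of 12.7 to 38.2 per degree of freedom).

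Counts were tested with edgeR 4.0.16 (R 4.3.3; robust quasi-likelihood fit, TMM factors, default expression filter, Benjamini-Hochberg adjustment over 17006 genes, threshold 0.05, 4 residual degrees of freedom), a script tested on simulated data. CPM use TMM-scaled sizes, log2 CPM a prior count of 2. Alternatives used DESeq2 1.42.0, limma-voom (limma 3.58.1), other scalings, filters and thresholds, a replicate block, a covariate and leaving out libraries. Members and lists were chosen with earlier results of these data known, so lists are described by counts and medians. Named genes are the members, up to 4 called members of a list by adjusted p, otherwise its 2 most abundant tested genes, the 5 most similar profiles (mean of at least 2 CPM) per called member, and neighbours; other genes are marked as chosen later. Lists of macrophage, mesenchymal, smooth muscle, and cartilage and bone genes had medians of 0.61, 0.12, 0.21 and 1.16, with 0, 1, 0 and 5 genes called. EdgeR found 0 macrophage and 2 smooth muscle genes at an unadjusted p below 0.05. For these 2 lists DESeq2 called 0 and 1, limma-voom 0, and the edgeR fit with a replicate block 5 and 1. End bud and general epithelial genes had medians of -0.35 and -0.08, with 0 called by edgeR or limma-voom (2 and 0 by DESeq2; edgeR gave 7 lower and 0 an unadjusted p below 0.05). Listed genes without a row, 7 in all, were not analysed here.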

Additional observations from a re-analysis of the deposited data

How the results depend on the processing

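Gata2 and Gata3 kept a positive log2 change under all 18 alternatives, and both were called with RLE, upper-quartile or library-total scaling, no filter, a stricter filter, DESeq2, limma-voom and edgeR without the robust option. At a threshold of 0.01 both missed (log2 changes 2.44 and 1.71; 0 members and 20 genes called). With the muscle score as covariate the log2 changes were 1.96 for Gata2, 2.05 for Gata3 and -0.20 for Gata6 (0 members and 0 genes called by edgeR, 351 genes at an unadjusted p below 0.05). Leaving out each library gave 2.26 to 2.57 for Gata2, 1.63 to 1.87 for Gata3, 0 to 2 members and 20 to 151 genes called, and a ratio difference between Gata2 and Gata3 of 0.50 to 0.87. The number of genes called, 155 as reported, was 552 without a filter, 672 by DESeq2 and 78 by limma-voom. Replicate numbers are shared by the groups, but only 4 libraries could be paired by number, and nothing says that a number marks a shared litter or day. With the replicate block on these 4 libraries (1 residual degree of freedom) 540 genes and both members were called, at 2.54 for Gata2 and 1.62 for Gata3. Without the block on the same 4 libraries, a fit added after seeing the data, 42 genes and 0 members were called, at 2.57 and 1.61 (unadjusted p of 0.000422 and 0.00133). Deviations of same-numbered libraries from their group means correlated at 0.402 over genes. Depth limits Gata1, Gata4 and Gata5, with at most 9 reads in a library.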
